A study of Homo sapiens with 12 samples.

Results

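The comparison sets cells treated with 50 µM GSK126 beside cells treated with 100 µM S2101, in 3 human carcinoma lines. Its members were chosen by label: 6 of the 12 libraries of the series carry 1 of these 2 compounds, 3 under GSK126 and 3 under S2101, 1 of each per line. The 3 untreated libraries of the same lines are set beside them, and the 3 libraries treated with trichostatin A (TSA), a histone deacetylase inhibitor, take no part in the fit. MHCC97H derives from a hepatocellular carcinoma, A549 from a lung adenocarcinoma and HCT116 from a colorectal carcinoma. The medium was RPMI 1640 for HCT116 and DMEM for the other 2 lines, and effects of line and medium cannot be told apart. The concentrations of GSK126 and S2101 differ. No source used here gives a treatment time or a vehicle control. The replicates of a condition are the 3 lines (n = 3 each), with no repeat culture of a line, so p-values set a difference against its spread between lines. In what follows, 3 values in a row are those of MHCC97H, A549 and HCT116, in that order. A level is a TMM-scaled CPM, the read count over the scaled library total, and a difference is a log2 ratio of GSK126 over S2101.

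GSK126 inhibits EZH2, the catalytic subunit of Polycomb repressive complex 2 (PRC2), which methylates histone H3 and helps keep developmental genes silent. S2101 inhibits LSD1, the histone H3 demethylase encoded by KDM1A, which acts with the scaffold protein RCOR1 and with histone deacetylases. Several of the gene groups below have a well-known common control. SREBP factors, made as precursors in the endoplasmic reticulum, are released when membrane sterol is low and switch on the enzymes of sterol and fatty acid synthesis. NF-kB factors induce their own inhibitors and many chemokines, and E2F factors drive the genes of DNA replication.

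The upstream bases of 6 genes are shown because they stand for gene groups described below in depth: sterol synthesis and sensing, NF-kB feedback and DNA replication. Each run is the 250 bases before the RefSeq start of the gene (GRCh38.p14), read 5′ to 3′ in the direction of transcription. HMGCS1, a synthase of the early sterol pathway, lies downstream of chr5:43313413-43313662 (minus strand), and SREBF2, which encodes SREBP2, downstream of chr22:41832855-41833104 (plus strand). Capitals mark the CCAAT box (CCAAT, here read as ATTGG from the opposite strand) and, in SREBF2, a sterol element (ATCACCCCA).
HMGCS1: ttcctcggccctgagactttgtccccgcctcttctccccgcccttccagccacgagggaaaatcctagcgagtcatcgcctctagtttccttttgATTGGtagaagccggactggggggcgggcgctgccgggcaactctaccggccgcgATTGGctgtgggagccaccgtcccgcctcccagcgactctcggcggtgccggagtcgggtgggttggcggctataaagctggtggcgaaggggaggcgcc
SREBF2: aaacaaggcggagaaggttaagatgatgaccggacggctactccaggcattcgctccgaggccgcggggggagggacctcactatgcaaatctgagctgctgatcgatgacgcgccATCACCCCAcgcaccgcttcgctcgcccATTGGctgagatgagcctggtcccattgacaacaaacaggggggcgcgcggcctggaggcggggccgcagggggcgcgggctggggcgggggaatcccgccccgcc
NFKBIA and TNFAIP3 encode inhibitors of NF-kB, and their windows are chr14:35404750-35404999 (minus strand) and chr6:137867009-137867258 (plus strand). Capitals mark an NF-kB motif (GGGANTTTC), read from the opposite strand in TNFAIP3 and in the second match of NFKBIA.
NFKBIA: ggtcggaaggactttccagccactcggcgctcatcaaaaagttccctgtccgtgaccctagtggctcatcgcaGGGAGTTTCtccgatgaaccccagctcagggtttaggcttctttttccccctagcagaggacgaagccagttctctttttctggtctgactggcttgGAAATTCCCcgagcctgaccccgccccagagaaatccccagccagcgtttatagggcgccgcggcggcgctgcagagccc
TNFAIP3: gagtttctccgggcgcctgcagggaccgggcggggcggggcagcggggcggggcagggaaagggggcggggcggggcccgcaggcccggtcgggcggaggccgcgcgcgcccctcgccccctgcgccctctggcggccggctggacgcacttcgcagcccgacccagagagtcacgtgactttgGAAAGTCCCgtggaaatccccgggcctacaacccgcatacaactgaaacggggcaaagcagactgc
PCNA, the sliding clamp of DNA polymerase, and MCM3, a subunit of the replicative helicase, have the windows chr20:5126623-5126872 (minus strand) and chr6:52284743-52284992 (minus strand). Capitals mark an E2F motif (TTTCCCGC), on the opposite strand in PCNA.
PCNA: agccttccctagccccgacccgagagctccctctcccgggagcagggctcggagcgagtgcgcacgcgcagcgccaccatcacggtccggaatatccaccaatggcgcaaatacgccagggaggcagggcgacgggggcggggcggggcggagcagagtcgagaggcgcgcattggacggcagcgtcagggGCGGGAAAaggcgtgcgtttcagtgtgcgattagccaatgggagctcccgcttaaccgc
MCM3: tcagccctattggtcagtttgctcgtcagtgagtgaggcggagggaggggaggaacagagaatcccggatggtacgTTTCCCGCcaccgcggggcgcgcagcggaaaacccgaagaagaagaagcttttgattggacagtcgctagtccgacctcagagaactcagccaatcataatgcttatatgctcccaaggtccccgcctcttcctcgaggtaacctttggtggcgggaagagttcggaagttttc
Motifs were sought on both strands, were chosen after the values were seen and the matches marked do not overlap. HMGCS1 and PCNA each have another start in the RefSeq table, whose window is not shown. The CCAAT box was found in 14 of 16 sterol synthesis genes with a window, against 37.0% of all 27305 genes. It was also found in 6 of 10 sterol sensing genes, 9 of 15 fatty acid genes, 17 of 31 replication genes and 22 of 26 mitosis genes. The NF-kB motif was found in 6 of 13 NF-kB feedback genes and 7 of 14 chemokine genes, against 1.37% of all genes. In 17 immediate early genes the AP-1 motif (TGANTCA) was found in 0, against 8.06% of all genes. The CRE motif (TGACGTCA) was found in 1 of these 17, against 2.03% of all genes. The E2F motif was found in 9 of 31 replication genes and 1 of 26 mitosis genes, against 1.70% of all genes. The sterol element was found in SREBF2 and in no other gene of the sterol and fatty acid lists, against 0.227% of all genes. A match is a description of the letters and not of a bound site.

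Library totals ran from 14468304 to 19061367 counts, and the floor for a count of 0, set at 3 reads, corresponded to 0.157 to 0.207 CPM (counting error only). The markers of tissue fitted the labels in part. The 7 liver markers summed to 27.9 to 37.6 CPM in MHCC97H, 4.21 to 9.61 CPM in A549 and 4.47 to 6.01 CPM in HCT116. APOB was the highest of them in MHCC97H, at 14.7 to 24.0 CPM, and was at 0 in the other 2 lines. In MHCC97H the liver gene ALB stood at 0.540 to 1.10 CPM and AFP at 1.30 to 2.63 CPM, beside 1115 to 2408 CPM for the intestinal keratin KRT20. The 5 lung markers summed to 2.30 to 2.55 CPM in A549, with 0 to 0.192 CPM of the lung factor NKX2-1. HCT116 had more of both, at 4.09 to 4.81 CPM for the sum and 0.700 to 1.47 CPM for NKX2-1. The 6 colon markers went against the labels, with sums of 1275 to 2602 CPM in MHCC97H, 11.2 to 26.7 in A549 and 12.3 to 12.9 in HCT116. MHCC97H also had 128 to 134 CPM of CDH17 and 25.9 to 54.6 CPM of VIL1. Of these markers HCT116 had 11.3 to 11.7 CPM of the intestinal factor CDX2, while CDX1 and LGR5 were at 0 and KRT20, CDH17 and VIL1 below 1 CPM. The epithelial marker EPCAM had 0.202 to 0.582, 1.92 to 3.31 and 220 to 285 CPM, and KRT8 3390 to 4425, 1674 to 2804 and 1477 to 1989 CPM. Markers of blood, endothelium and fibroblasts summed to 56.2 to 79.8 CPM in MHCC97H, mostly the endothelial PECAM1 at 51.6 to 77.8 CPM. They summed to 9.41 to 14.5 CPM in A549 and 26.8 to 41.2 CPM in HCT116, where the collagen gene COL1A1 had 23.7 to 38.0 CPM, and CD3E, which defines T cells, was at 0 in the 9 libraries. MALAT1, a nuclear RNA, took 0.462, 0.706 and 0.573% of the counts under GSK126, against 0.488, 0.504 and 0.430% under S2101. The S2101 library of A549 stood apart: genes with 0 reads untreated and at least 5 CPM under TSA in the same line (45, 39 and 6 genes) summed to 0.980, 2.64 and 4.64% of their TSA level under GSK126 and to 0.851, 7.99 and 1.28% under S2101. Whether these transcripts came over from the TSA library or were made by the cells under S2101 was not tested. Values without that library, or with an estimated TSA share taken off it, stand beside many of the gene lists and genes that they move most.

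No gene was called different between GSK126 and S2101. By edgeR's quasi-likelihood test, adjusted by Benjamini-Hochberg, 0 of 15763 genes were higher and 0 lower at an adjusted p under 0.05 (0%). The smallest adjusted p was 0.519. At an unadjusted p under 0.05, 773 genes were higher (4.9%) and 696 lower (4.42%). DESeq2 called 14 genes higher and 10 lower. Of those 24, 10 lay below the low-count filter of the edgeR fit, with at most 6 reads over the 6 libraries, and in 7 of these reads came from the S2101 library of A549. The other 14 were 11 higher, among them FASN, ACSS2, DHCR7, MVD, SQLE, COL11A2, NR4A1, NR4A2 and SIK3, and 3 lower, HSPA4L, GLDC and NEIL3. The single-gene differences described below are therefore measurements that did not pass the test of the design, with their size and error.

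Each compound was also set against the untreated cells in the same fit. GSK126 against untreated gave 1044 genes higher (6.62%) and 1080 lower (6.85%). S2101 against untreated gave 0 higher and 0 lower (0% each way), with 2250 genes at an unadjusted p under 0.05, and DESeq2 gave 156 higher and 47 lower. These 2 contrasts share the untreated libraries, so their values are set side by side and not compared. The GSK126 calls rested on the lines and the spread used. Without MHCC97H there were 796 higher and 967 lower, without A549 18 and 0, and without HCT116 0 and 0. With all 12 libraries in the fit the calls were 0 and 0. Without the S2101 library of A549 they numbered 589 and 572. The calls against untreated given below for lists and genes come from the same fit and share this limit.

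The compounds lay closer together in MHCC97H than in the other 2 lines. Taking genes whose higher library held at least 10 CPM, the SD of the log2 ratio was 0.208, 0.464 and 0.382 over 9870, 10269 and 10088 genes. At least a 2-fold ratio in favour of GSK126 was seen for 17, 232 and 145 genes and in favour of S2101 for 22, 218 and 31. Over the 15763 tested genes the ratio of A549 ran with that of HCT116 (Pearson r = 0.44 and Spearman rho = 0.42, across genes, which are not independent replicates). The ratio of MHCC97H ran with neither A549 (Pearson r = -0.015 and Spearman rho = -0.00024) nor HCT116 (Pearson r = -0.00059 and Spearman rho = 0.0092). In A549 the median log2 ratio was -0.07 in the fifth of genes with the shortest transcripts and 0.09 in the fifth with the longest, a tilt whose part in the gene results was not tested. Genes higher in all 3 lines made up 15.4% and genes lower in all 3 made up 15.8% of those tested.

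**Figure D1:**
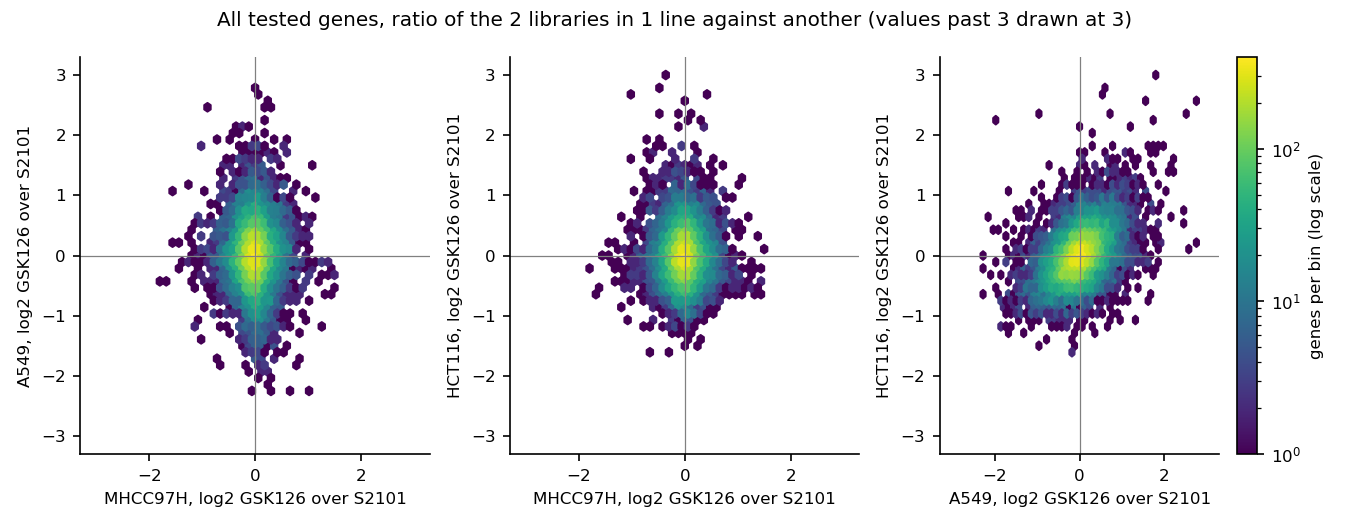
Log2 ratio of GSK126 over S2101 in a line (horizontal axis) against the same ratio in another line (vertical axis) for the 15763 tested genes, counted in bins whose colour runs on a log scale, with ratios past 3 drawn at 3. The cloud is upright and narrow on the MHCC97H axis and tilted between A549 and HCT116, where Pearson r was 0.44.

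Sterol synthesis had the highest median difference of the 44 gene lists, with the same sign in every line. All 21 enzymes listed from acetyl-CoA to cholesterol were tested, and 19 had a positive difference, as 50.5% of all tested genes did. At an unadjusted p under 0.05, 15 were higher under GSK126 (all genes 4.9%) and 0 lower, and 18 were higher in all 3 lines, against 15.4% of all genes. The median difference was 0.61, against 0.00 over all genes tested, with line medians of 0.47, 0.49 and 0.84. Both compounds lay above untreated. The median log2 ratio to untreated was 1.28, 1.72 and 1.43 under GSK126 and 0.71, 1.17 and 0.73 under S2101. By the adjusted test 19 enzymes rose under GSK126 (all genes 6.62%) and 0 under S2101 (all genes 0%). Without the S2101 library of A549 the median difference was 0.69, and leaving out each line gave 0.66, 0.65 and 0.44. The count of 15 became 14 without MHCC97H, 16 without A549 and 9 without HCT116.

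HMGCS1, an early synthase of the pathway (chromosome 5, 43287470 to 43313412), had 219, 919 and 700.1 CPM under GSK126, against 135, 571 and 238 CPM under S2101 and 82.4, 289 and 66.4 CPM untreated. Each line was highest under GSK126, and the groups overlapped, with A549 the highest line in each. The difference was 1.04 ± 0.31 (SE, adjusted p = 0.519).

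The later steps behaved alike. MVD, the mevalonate decarboxylase, had 67.0, 138 and 194 CPM under GSK126, against 40.9, 83.8 and 90.1 CPM under S2101 (difference 0.84 ± 0.17, SE). SQLE, which oxidises squalene and is the second control point of the pathway, had 459.7, 497 and 261 CPM under GSK126, against 342, 309.8 and 144 CPM under S2101 (0.66 ± 0.14). DHCR7, which makes cholesterol in the last step, had 366, 384 and 297 CPM under GSK126, against 257, 250.1 and 137 CPM under S2101 (0.75 ± 0.15). Each was higher under GSK126 in all 3 lines, with adjusted p = 0.519 in edgeR's test for all 3 genes and 0.0267, 0.027 and 0.0267 in DESeq2. MVD, SQLE and DHCR7 were chosen after their values were seen, because DESeq2 called them. The exceptions in the list were the phosphomevalonate kinase PMVK (-0.17 ± 0.12) and the sterol reductase TM7SF2 (-0.26 ± 0.26). TM7SF2 had 7.31, 17.4 and 38.3 CPM under GSK126, against 9.91, 27.7 and 28.9 CPM under S2101 and 2.02, 4.31 and 13.6 CPM untreated, so S2101 was the higher compound in MHCC97H and A549.

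**Figure D2:**
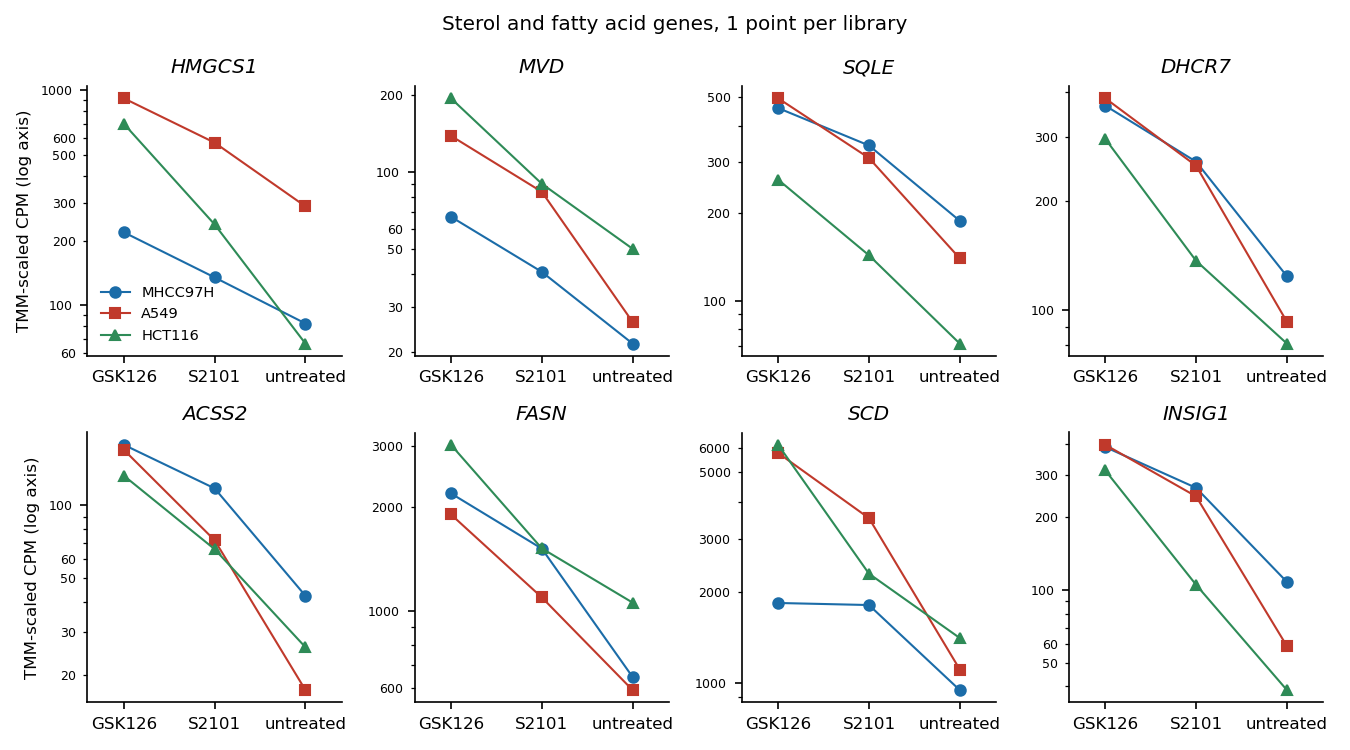
TMM-scaled CPM on a log axis for 8 genes of sterol and fatty acid metabolism under GSK126, under S2101 and untreated, with 1 point per library and a line joining the 3 libraries of a cell line. In each of the 8 genes and each line the GSK126 point lies above the S2101 point, and the S2101 point above the untreated one.

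Genes of sterol sensing and uptake followed in part. All 14 were tested, 12 had a positive difference, 6 of those an unadjusted p under 0.05 (all genes 4.9%), and the median was 0.38 (line medians 0.11, 0.24 and 0.52). That count was 4 without the S2101 library of A549 and 7 without MHCC97H, 4 without A549 and 3 without HCT116. INSIG1, which holds SREBP in the endoplasmic reticulum, differed by 0.96 ± 0.23 and SREBF2 by 0.38 ± 0.11 (SE, adjusted p = 0.519 each). SREBF1, which encodes SREBP1, stood at 0.02 ± 0.32, and MYLIP, a ubiquitin ligase induced by LXR, at -0.54 ± 0.25.

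LXR factors sense oxidised sterols and switch on cholesterol export. Of 10 of their targets and partners 8 were tested, 6 with a negative difference and 0 with an unadjusted p under 0.05, and the median was -0.39 (line medians -0.51, 0.01 and -0.00). It was -0.21 with the TSA share taken off the S2101 library of A549, and -0.02 without MHCC97H, -0.39 without A549 and -0.37 without HCT116. The exporter ABCA1 had 42.7, 26.0 and 1.73 CPM under GSK126, against 129, 23.0 and 1.61 CPM under S2101 and 125, 47.5 and 3.29 CPM untreated. MHCC97H alone carried its difference of -0.60 ± 0.32 (SE, adjusted p = 0.562), which was 0.14 without that line. SMPDL3A, a phosphodiesterase induced by LXR, was higher under GSK126 in all 3 lines (0.70 ± 0.31).

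Fatty acid synthesis lay on the same side as sterol synthesis. Of 17 listed genes 16 were tested, 9 were higher under GSK126 (all genes 4.9%) and 1 lower at an unadjusted p under 0.05, and the median difference was 0.29 (line medians 0.16, 0.45 and 0.36). Against untreated, 11 rose under GSK126 (all genes 6.62%) and 0 under S2101 (all genes 0%) by the adjusted test. FASN, the fatty acid synthase (chromosome 17, 82078338 to 82098236), had 2194, 1907 and 3032 CPM under GSK126, against 1519, 1098 and 1522 CPM under S2101 and 646, 592 and 1060.2 CPM untreated. The GSK126 libraries lay above the S2101 libraries without overlap, by 0.77 ± 0.14 (SE, unadjusted p = 4.71e-04, adjusted p = 0.519 in edgeR, 0.00323 in DESeq2). ACSS2, which makes acetyl-CoA from acetate, had 178, 169.7 and 133 CPM under GSK126, against 118, 71.8 and 66.0 CPM under S2101 and 42.4, 17.3 and 26.0 CPM untreated (0.97 ± 0.20). LPIN1, a phosphatidate phosphatase, differed by 0.85 ± 0.20, with line ratios of 0.30, 0.82 and 1.34. The desaturase SCD (0.75 ± 0.27) was higher in all 3 lines as well, while GPAM, an acyltransferase of triglyceride synthesis, was lower (-0.40 ± 0.15, unadjusted p = 0.0247).

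DNA replication had the lowest median difference of the 44 gene lists, and it came from A549 and HCT116. All 37 genes were tested and 37 had a negative difference, 22 of them with an unadjusted p under 0.05 (all genes 4.42%). That count of 22 was 2 without the S2101 library of A549, and 35 without MHCC97H, 2 without A549 and 1 without HCT116. The median was -0.62, with line medians of 0.13, -1.45 and -0.69. In MHCC97H 32 of them were higher under GSK126, against 46.6% of all genes there, and 5 were lower in all 3 lines (all genes 15.8%). The median log2 ratio to untreated was -0.56, -1.92 and -1.29 under GSK126 and -0.73, -0.48 and -0.65 under S2101, so both compounds lay below untreated in each line. By the adjusted test 36 fell under GSK126 (all genes 6.85%) and 0 under S2101 (all genes 0%). Without A549, and also without HCT116, 0 of all tested genes were called lower under GSK126 against untreated, so the 36 rested on both lines. Without the S2101 library of A549 the median was -0.45, and with a line left out it was -1.07 without MHCC97H, -0.27 without A549 and -0.63 without HCT116. In bulk RNA, fewer cells in S phase and less of these transcripts per cell cannot be told apart.

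MCM3 had 108, 42.5 and 118 CPM under GSK126, against 106, 126 and 218 CPM under S2101 and 178, 174 and 343 CPM untreated. Its level in A549 and HCT116 was lower under GSK126, and in MHCC97H the compounds gave nearly the same level. The same pattern held for the helicase subunit MCM4, with 235, 70.2 and 114 CPM under GSK126, against 228, 252 and 256 CPM under S2101 and a difference of -0.94 ± 0.31 (SE, unadjusted p = 0.0141, adjusted p = 0.519). GINS2, which joins the helicase to the polymerase, had 13.4, 12.9 and 20.8 CPM under GSK126, against 14.6, 38.9 and 38.3 CPM under S2101 (-0.86 ± 0.23). PCNA had 167, 109 and 119 CPM under GSK126, against 154, 301 and 186 CPM under S2101 and 226, 349 and 275 CPM untreated. Its S2101 library of A549 was close to untreated, while its GSK126 library was the lowest of the 9. MCM3 and PCNA are outside the rule for named genes and are given because their upstream sequence is printed above.

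Genes of mitosis took the same side with smaller differences. All 30 had a negative value, 6 with an unadjusted p under 0.05 (all genes 4.42%), and the median was -0.44 (line medians 0.01, -0.85 and -0.54). The count was 2 without the S2101 library of A549, and 18 without MHCC97H, 1 without A549 and 0 without HCT116. The ratio to untreated was -0.40, -1.92 and -0.83 under GSK126 and -0.44, -1.01 and -0.30 under S2101, and 26 of them fell under GSK126 by the adjusted test (all genes 6.85%). BUB1B, a spindle checkpoint kinase, had 97.5, 21.9 and 69.4 CPM under GSK126, against 109.6, 49.3 and 129.9 CPM under S2101 (-0.70 ± 0.26). CDK1, the mitotic kinase, had 53.2, 28.1 and 67.4 CPM under GSK126, against 58.8, 75.0 and 104 CPM under S2101 (-0.68 ± 0.27). Each was lower in all 3 lines, with MHCC97H nearest to 0.

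NF-kB feedback genes had positive median ratios of GSK126 over S2101 in A549 and HCT116 and a small negative one in MHCC97H. All 15 were tested and had a positive fitted difference, 7 with an unadjusted p under 0.05 (all genes 4.9%), and the median was 0.52. The line medians were -0.15, 1.31 and 0.76. Against untreated the medians were 0.87, 0.95 and 0.65 under GSK126 and 1.03, -0.13 and 0.02 under S2101, so that in MHCC97H both compounds lay above untreated and in the other 2 lines GSK126 did. By the adjusted test 7 rose under GSK126 (all genes 6.62%) and 0 under S2101 (all genes 0%). Leaving out the S2101 library of A549 gave a median of 0.24 and 0 genes with an unadjusted p under 0.05. Medians with a line left out were 0.98 without MHCC97H, 0.27 without A549 and 0.34 without HCT116, and the counts 12 without MHCC97H, 1 without A549 and 0 without HCT116.

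RELB, an NF-kB subunit, had 37.3, 59.4 and 42.5 CPM under GSK126, against 36.7, 16.7 and 7.86 CPM under S2101 and 15.7, 22.3 and 4.76 CPM untreated. The compounds were level in MHCC97H, and GSK126 was the higher in A549 and HCT116. Its difference was 1.42 ± 0.44 (SE, unadjusted p = 0.0105, adjusted p = 0.519). TNFAIP3 had 33.5, 43.0 and 15.6 CPM under GSK126, against 38.4, 12.5 and 4.14 CPM under S2101 and 12.7, 8.29 and 4.02 CPM untreated, with ratios of -0.19, 1.71 and 1.69. NFKBIA had 48.1, 148 and 78.6 CPM under GSK126, against 58.0, 66.0 and 23.8 CPM under S2101 and 25.8, 51.0 and 26.7 CPM untreated, and is named here, outside the rule, because its sequence is printed above.

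Immediate early genes, which growth and stress signals switch on within minutes, showed the same split between lines. Of 24 listed 22 were tested, 8 higher (all genes 4.9%) and 0 lower at an unadjusted p under 0.05. The median was 0.49, with line medians of -0.24, 0.81 and 0.87. That count of 8 was 6 without the S2101 library of A549, and 13 without MHCC97H, 6 without A549 and 5 without HCT116. The median was 0.86 with the TSA share taken off the S2101 library of A549, and 1.04 without MHCC97H, 0.33 without A549 and 0.21 without HCT116. NR4A2, an orphan nuclear receptor, had 2.91, 48.8 and 68.4 CPM under GSK126, against 2.83, 6.18 and 10.3 CPM under S2101 and 0.877, 2.78 and 11.7 CPM untreated. A549 and HCT116 stood far above their S2101 libraries and MHCC97H did not, for a difference of 2.19 ± 0.51 (SE, adjusted p = 0.519 in edgeR, 0.0267 in DESeq2). FOSB, an AP-1 subunit, had 4.08, 10.4 and 14.7 CPM under GSK126, against 3.57, 1.02 and 2.10 CPM under S2101 (2.04 ± 0.53). NR4A1, the relative of NR4A2 named among the largest ratios of HCT116, had 22.2, 91.0 and 99.4 CPM under GSK126, against 16.4, 29.6 and 15.3 CPM under S2101 and 6.54, 19.2 and 17.0 CPM untreated. It was higher in all 3 lines, by 1.58 ± 0.34 (adjusted p = 0.519 in edgeR, 0.00642 in DESeq2). The feedback genes of ERK signalling had 3 of 15 members higher at an unadjusted p under 0.05 (all genes 4.9%) and a median of 0.21. Their count was 1 without the S2101 library of A549, and 6 without MHCC97H, 1 without A549 and 1 without HCT116. Their median was 0.14 without the S2101 library of A549, and 0.51 without MHCC97H, -0.00 without A549 and 0.17 without HCT116. EPHA4, an ephrin receptor (1.12 ± 0.29), and the ERK phosphatase DUSP5 (0.88 ± 0.34) were in front.

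**Figure D3:**
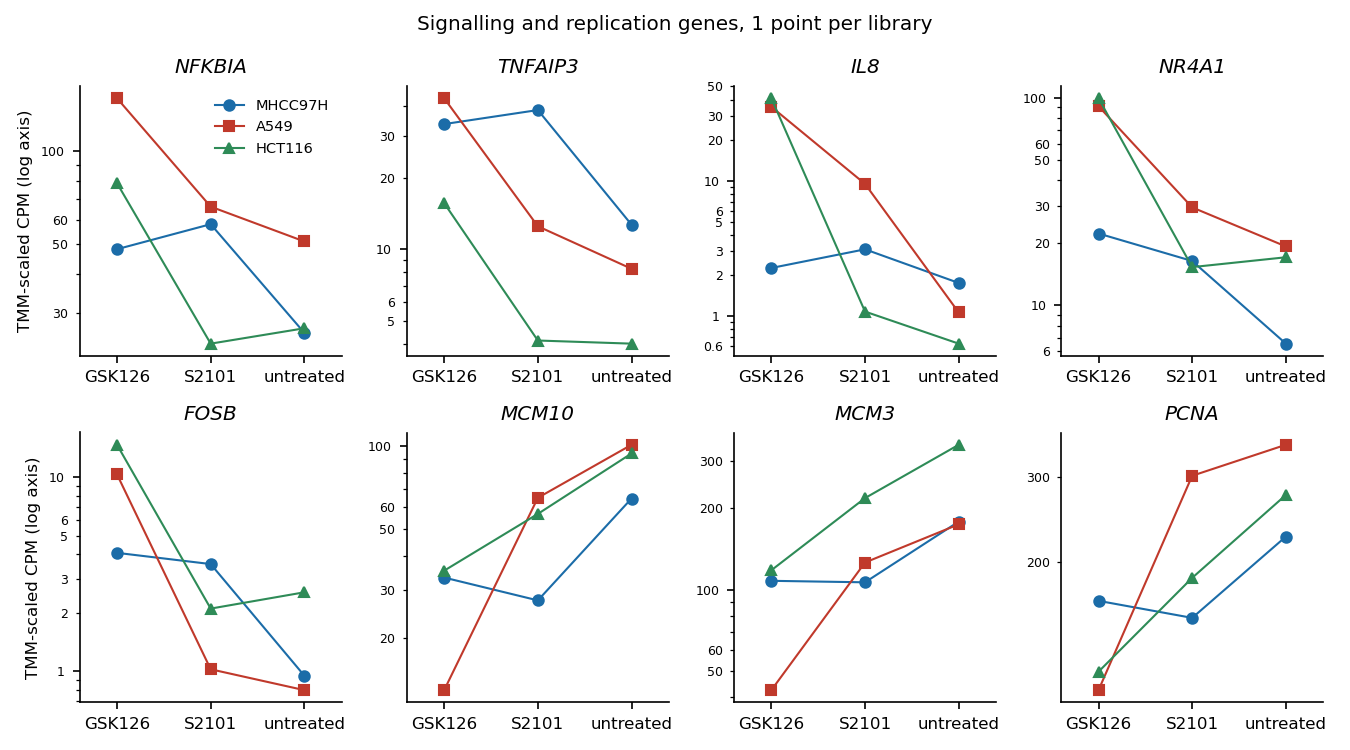
TMM-scaled CPM on a log axis for 5 signalling genes and 3 replication genes under GSK126, under S2101 and untreated, with 1 point per library and a line joining the 3 libraries of a cell line. In A549 and HCT116 the 5 signalling genes are higher and the 3 replication genes lower under GSK126 than under S2101, and in MHCC97H the ratios lie between -0.33 and 0.42 on the log2 scale.

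Chemokines and inflammatory cytokines had 13 tested of 17, 2 higher (all genes 4.9%) and 1 lower (all genes 4.42%) at an unadjusted p under 0.05. The median was 0.55, with line medians of -0.27, 0.34 and 0.49. Leaving out the S2101 library of A549 lowered the median to 0.075, with 7 genes positive and 6 negative, and leaving out a line gave 1.09 without MHCC97H, 0.25 without A549 and 0.20 without HCT116. IL8, the neutrophil chemokine CXCL8, had 2.26, 35.4 and 40.9 CPM under GSK126, against 3.11, 9.50 and 1.08 CPM under S2101 and 1.75, 1.06 and 0.623 CPM untreated. HCT116 had the largest ratio, A549 an intermediate one, and MHCC97H was low under every condition. The difference was 2.43 ± 0.91 (SE, unadjusted p = 0.0258, adjusted p = 0.527). PTGS2, the inducible cyclooxygenase, had 51.0, 266 and 0.934 CPM under GSK126, against 41.8, 42.8 and 0.754 CPM under S2101 (1.36 ± 0.63). For PTGS2 the compounds stood apart in A549.

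Stress targets were split between lines too. Targets of ATF4, which responds to amino acid shortage and to stress of the endoplasmic reticulum, had a median of 0.27 over 18 of 19 genes and line medians of -0.31, 0.57 and 0.86. With a line left out that median was 0.67 without MHCC97H, 0.20 without A549 and 0.12 without HCT116. The ratio to untreated was 0.39, 1.26 and 0.12 under GSK126 and 0.58, 0.63 and -0.71 under S2101, so in HCT116 S2101 lay below untreated. The pseudokinase TRIB3 had 267, 398 and 145 CPM under GSK126, against 226, 196 and 55.7 CPM under S2101 and 203, 83.3 and 119 CPM untreated (0.87 ± 0.38). ATF3, a stress-induced factor, had 28.6, 32.3 and 85.5 CPM under GSK126, against 48.1, 8.09 and 22.6 CPM under S2101 and 14.5, 5.50 and 43.6 CPM untreated (0.97 ± 0.55). Hypoxia targets had a median of 0.47 and line medians of -0.14, 0.76 and 0.53 over 18 genes. At an unadjusted p under 0.05, 3 were higher (all genes 4.9%) and 1 lower (all genes 4.42%). The hypoxia median was 0.33 without the S2101 library of A549 and 0.69 without MHCC97H, 0.28 without A549 and 0.33 without HCT116. The low-level gene ANKRD37 differed by 1.64 ± 0.38 and CA9, a carbonic anhydrase, by 1.00 ± 0.77. CA9 stood at -0.17 without the S2101 library of A549. The chaperone DNAJB9 (0.70 ± 0.34) and HERPUD1 (0.60 ± 0.43) of the endoplasmic reticulum, the amino acid transporters SLC38A2 (0.63 ± 0.28) and SLC36A4 (0.35 ± 0.13), and the hexokinase HK2 (1.19 ± 0.42) were the leading members of their lists, with adjusted p of 0.519 to 0.657 in edgeR.

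**Figure D4:**
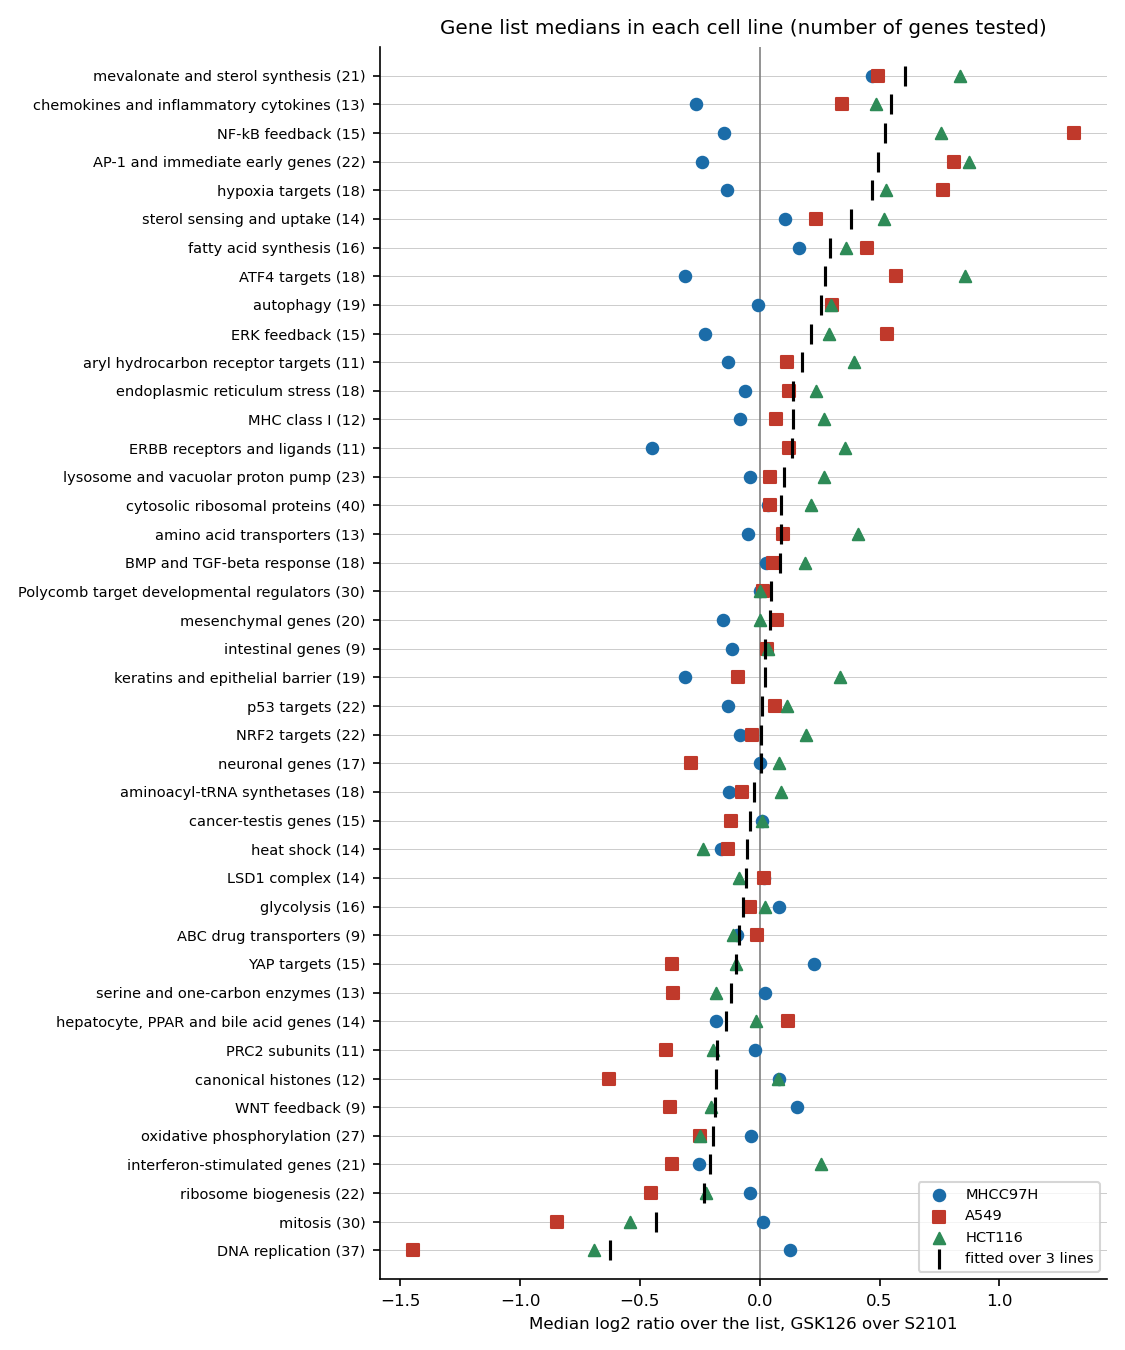
Median log2 ratio of GSK126 over S2101 for each gene list with at least 9 tested genes, in MHCC97H (circles), A549 (squares) and HCT116 (triangles), with the median of the fitted differences as a vertical bar. Sterol synthesis lies right of 0 in all 3 lines, while for NF-kB feedback, immediate early, ATF4 and hypoxia genes MHCC97H lies left of 0 and the other 2 lines right of it.

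The targets of the compounds showed small differences. Of 11 PRC2 genes 8 had a negative difference, 4 were lower (all genes 4.42%) and 1 higher at an unadjusted p under 0.05, and the median was -0.18 (line medians -0.02, -0.39 and -0.19). The 4 lower became 0 without the S2101 library of A549, and 5 without MHCC97H, 0 without A549 and 0 without HCT116. The median was -0.37 without MHCC97H, -0.09 without A549 and -0.14 without HCT116. EZH2 (chromosome 7, 148807383 to 148884291) had 45.5, 23.0 and 70.2 CPM under GSK126, against 45.2, 44.7 and 77.6 CPM under S2101 and 64.6, 60.2 and 107 CPM untreated. The compounds gave nearly the same level in MHCC97H, and A549 carried the difference of -0.34 ± 0.19 (SE, unadjusted p = 0.101, adjusted p = 0.567). EED, which binds methylated histone H3, had 25.9, 16.3 and 20.8 CPM under GSK126, against 26.6, 27.9 and 26.9 CPM under S2101 (-0.39 ± 0.16). The core subunit SUZ12 had 103, 95.5 and 80.0 CPM under GSK126, against 121, 127 and 99.9 CPM under S2101 (-0.32 ± 0.11), lower in all 3 lines. PHF1, an accessory subunit that recruits PRC2 to chromatin, went the other way with 0.51 ± 0.15 and ratios of 0.24, 0.80 and 0.44. Against untreated, EZH2 fell under GSK126 by 0.81 on the log2 scale (adjusted p = 0.0291), beside a value of -0.47 (adjusted p = 0.309) under S2101.

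KDM1A, the target of S2101 (chromosome 1, 23019468 to 23083689), had 95.1, 79.0 and 176 CPM under GSK126, against 91.6, 91.3 and 214 CPM under S2101 and 101, 132 and 246 CPM untreated, a difference of -0.14 ± 0.14 (SE, unadjusted p = 0.33, adjusted p = 0.751). The groups overlapped. RCOR1 stood at -0.03 ± 0.14. None of the 14 tested genes of the LSD1 complex (of 15 listed) had an unadjusted p under 0.05, and the median was -0.06, with PHF21A (0.25 ± 0.25) and ZMYM2 (-0.22 ± 0.14) farthest from 0. Per kilobase of transcript, in the authors' deposited RPKM, EZH2 was at 15.8, 8.47 and 26.6 under GSK126 and 15.4, 16.9 and 31.3 under S2101. KDM1A was at 28.7, 25.4 and 58.2 RPKM under GSK126 and 27.1, 30.1 and 75.1 under S2101, so KDM1A was the more abundant transcript in the 6 libraries. Of the developmental regulators known as Polycomb targets, 30 of 40 passed the low-count filter, 1 was higher (all genes 4.9%) and 0 lower at an unadjusted p under 0.05. The median was 0.05, with line medians of 0.00, 0.01 and 0.00. The T-box factor TBX15 (-1.25 ± 0.67) was seen above 1 CPM in MHCC97H alone, and the paired-box factor PAX7 (0.71 ± 0.53) had reads in A549 alone.

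Among genes with the smallest unadjusted p and a single direction in all 3 lines, FASN was joined on the higher side by COL11A2, ASIC3, SIK3 and PANX2. COL11A2, a collagen chain, had 0.647, 5.31 and 37.9 CPM under GSK126, against 0.453, 1.59 and 12.1 CPM under S2101 (1.52 ± 0.24). ASIC3, an acid-sensing ion channel, had 1.62, 20.3 and 5.41 CPM under GSK126, against 0.849, 8.60 and 2.48 CPM under S2101 (1.13 ± 0.19). The kinase SIK3 (0.69 ± 0.13) had line ratios of 0.49, 0.57 and 0.93, and the channel protein PANX2 (0.85 ± 0.17) of 0.45, 0.87 and 1.09. The S2101 levels of COL11A2, ASIC3, SIK3 and PANX2 lay near untreated, with S2101 values against untreated between -0.08 and 0.34. None of these passed edgeR's adjusted test (adjusted p = 0.519 for each), and DESeq2 gave 0.0175 for COL11A2 and 0.0471 for SIK3.

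On the lower side, HSPA4L, a chaperone of the HSP110 family, had 12.5, 14.3 and 15.5 CPM under GSK126, against 19.5, 23.7 and 32.1 CPM under S2101 and 23.9, 29.0 and 31.0 CPM untreated. The GSK126 libraries lay below all S2101 libraries, with a difference of -0.81 ± 0.14 (SE, adjusted p = 0.519 in edgeR, 0.00606 in DESeq2). PARD6A, a cell polarity protein, had 0.129, 1.15 and 2.87 CPM under GSK126, against 1.42, 3.63 and 6.94 CPM under S2101 and 0.270, 1.13 and 3.12 CPM untreated, so its difference of -1.74 ± 0.34 came with S2101 above untreated in each line. USP18, which removes the ubiquitin-like protein ISG15 (-0.96 ± 0.20), the nuclease DCLRE1A (-0.63 ± 0.14), the meiosis gene MNS1 (-0.98 ± 0.22) and the dNTP hydrolase SAMHD1 (-0.65 ± 0.15) completed the set. Heat shock genes as a list had 4 of 14 lower (all genes 4.42%) and 0 higher at an unadjusted p under 0.05. Their median was -0.05, or -0.15 without the S2101 library of A549. The number lower was 4 without MHCC97H, 2 without A549 and 1 without HCT116. HSP90AA1, the inducible cytosolic HSP90, had 1442, 1724 and 1810.3 CPM under GSK126, against 1588, 2731 and 3302 CPM under S2101 (-0.55 ± 0.15).

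**Figure D5:**
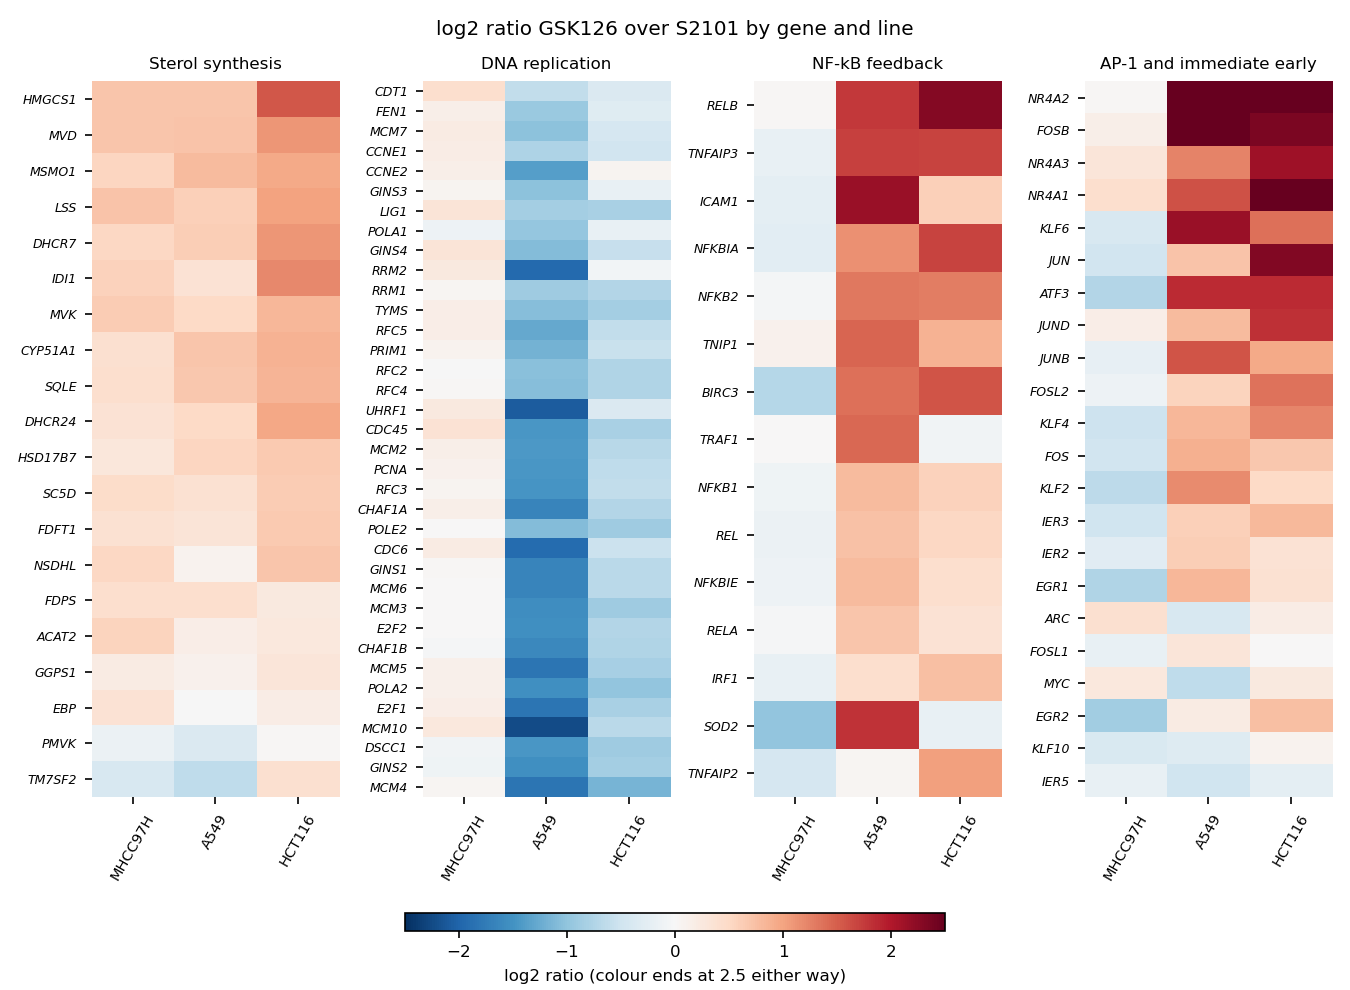
Log2 ratio of GSK126 over S2101 for tested genes (rows, by fitted difference) in each line (columns) for 4 gene lists, red where GSK126 was higher and blue where S2101 was higher, the colour scale ending at its outermost tint for larger ratios. The sterol panel is red across the 3 columns for most genes, the replication panel is mostly blue in A549 and HCT116, and the other 2 panels are mostly red in A549 and HCT116 and pale or blue in MHCC97H.

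Autophagy genes were higher under GSK126 for 5 of 19 members at an unadjusted p under 0.05 (all genes 4.9%) and lower for 0, with a median of 0.25 (line medians -0.01, 0.30 and 0.30). The count of 5 was 1 without the S2101 library of A549, and 6 without MHCC97H, 2 without A549 and 2 without HCT116. WIPI1, which binds the membrane of forming autophagosomes, had 59.0, 118 and 78.2 CPM under GSK126, against 52.3, 27.9 and 38.0 CPM under S2101 and 21.2, 7.29 and 16.7 CPM untreated (1.19 ± 0.38). GABARAPL1, a member of the LC3 family, had 73.3, 80.0 and 75.5 CPM under GSK126, against 58.2, 24.7 and 42.5 CPM under S2101 (0.95 ± 0.24). Both compounds lay above untreated for WIPI1 in every line, GSK126 the higher. Lysosomal genes had 0 of 23 members at an unadjusted p under 0.05, with the pump accessory subunit ATP6AP1 (0.33 ± 0.15) and the sialidase NEU1 (0.32 ± 0.37) farthest from 0.

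Genes of mitochondrial respiration had small negative differences, none called. Of 27 tested, 26 had a negative difference, 20 were lower in all 3 lines (all genes 15.8%) and 4 had an unadjusted p under 0.05. The median was -0.20 (line medians -0.04, -0.25 and -0.25). In MHCC97H 7 were higher under GSK126. The count of 4 (all genes 4.42%) was 0 without the S2101 library of A549, and 9 without MHCC97H, 0 without A549 and 0 without HCT116. ATP5G1, a subunit of the ATP synthase ring, differed by -0.42 ± 0.17 and the cytochrome CYC1 by -0.34 ± 0.15. Ribosome biogenesis genes had a median of -0.23 (line medians -0.04, -0.45 and -0.22), with 4 of 22 lower at an unadjusted p under 0.05 (all genes 4.42%). That count was 1 without the S2101 library of A549, and 4 without MHCC97H, 0 without A549 and 0 without HCT116. The ribosomal RNA processing factors BOP1 (-0.51 ± 0.18) and UTP20 (-0.39 ± 0.14) were farthest from 0. Cytosolic ribosomal protein genes lay slightly on the other side, 37 of 40 positive with a median of 0.09, 0 of them with an unadjusted p under 0.05, led by RPLP0 (0.21 ± 0.11) and RPL3 (0.18 ± 0.13). In the serine and one-carbon list the glycine decarboxylase GLDC had 0.129, 14.2 and 3.34 CPM under GSK126, against 0.113, 48.8 and 9.96 CPM under S2101 and 0.202, 53.8 and 6.63 CPM untreated. A549 and HCT116 were lower under GSK126 and MHCC97H had almost no reads, for a difference of -1.64 ± 0.26 (SE, adjusted p = 0.519 in edgeR, 0.0267 in DESeq2).

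Immune lists had few members with an unadjusted p under 0.05. Interferon-stimulated genes had a median of -0.21 over 21 of 24 listed, 3 lower (all genes 4.42%) and 0 higher at an unadjusted p under 0.05. Their line medians were -0.25, -0.37 and 0.26, and in HCT116 14 of the 21 were higher under GSK126. Leaving out the S2101 library of A549 gave a median of -0.066 with 1 lower, and taking off its TSA share gave -0.07 with 1 lower and 1 higher. The interferon median was -0.08 without MHCC97H, -0.08 without A549 and -0.31 without HCT116. IFIT1, which binds foreign RNA, had 1.49, 3.20 and 1.87 CPM under GSK126, against 2.26, 6.31 and 4.25 CPM under S2101 (-0.92 ± 0.34), and IFI6 differed by -0.79 ± 0.27. NLRC5, the activator of MHC class I genes, differed by -0.62 ± 0.22 and HLA-F by -0.50 ± 0.23, where reads can be shared with other HLA genes. NRF2 targets had 0 of 22 members at an unadjusted p under 0.05, with HMOX1, the haem oxygenase (-0.37 ± 0.34), and NQO1, a quinone reductase (-0.36 ± 0.19), farthest. Aryl hydrocarbon receptor targets included AHRR, the repressor of that receptor, at 0.63 ± 0.20. The metallothioneins MT2A (-0.53 ± 0.15) and MT1F (-0.65 ± 0.48) were lower under GSK126, and MT1F stood at 0.19 without the S2101 library of A549.

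The p53 targets had a median of 0.01, with BBC3, which encodes the death protein PUMA (1.05 ± 0.47), and TP53INP1 (0.85 ± 0.29) in front. TP53INP1 had 74.0, 42.6 and 44.5 CPM under GSK126, against 45.2, 19.1 and 28.0 CPM under S2101 and 10.6, 7.89 and 20.1 CPM untreated, in the same order in each line. Growth factor and adhesion lists were mixed. NRG1, an ERBB ligand, differed by 0.53 ± 0.28, HBEGF by 0.33 ± 0.39, the YAP targets ANKRD1 by -1.17 ± 0.57 and NT5E by 0.51 ± 0.26, and the WNT feedback gene NKD1 by -0.32 ± 0.28. BMP4 differed by -0.40 ± 0.22, BMP2 by 0.98 ± 0.55 and INHBA by 1.22 ± 0.59, with BMP2 at 119.7, 3.77 and 0.200 CPM under GSK126, against 116, 0.255 and 0.0538 CPM under S2101. The collagenase MMP1 (0.61 ± 0.63), the transcription factor SNAI2 (-0.68 ± 0.38), KRT4 (-0.64 ± 0.94) and the tight junction protein CLDN7 (0.58 ± 0.24) led the mesenchymal and epithelial lists. The 2 aminoacyl-tRNA synthetases farthest from 0 were HARS (-0.21 ± 0.12) and MARS (-0.21 ± 0.13), and the muscle phosphofructokinase PFKM stood at -0.38 ± 0.18. None of the genes in this paragraph passed the adjusted test in edgeR (adjusted p of 0.519 to 0.848).

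Lineage genes were led by liver and gut genes seen mainly in MHCC97H. CREB3L3, a liver and gut transcription factor, had 9.44, 0.256 and 0.267 CPM under GSK126, against 31.9, 0.701 and 0.915 CPM under S2101 and 4.52, 0 and 0.566 CPM untreated, lower under GSK126 in all 3 lines (-1.65 ± 0.44). CEACAM5, carcinoembryonic antigen, had 32.9, 1.28 and 0.334 CPM under GSK126, against 80.8, 1.40 and 0.592 CPM under S2101 (-0.93 ± 0.40). The fibrinogen chain FGA (0.86 ± 0.26) and the mucin MUC13 (0.63 ± 0.46) were higher under GSK126. The transporters ABCC3 (-0.32 ± 0.36) and ABCG2 (-0.23 ± 0.15), which export drugs, were lower by amounts within their error or close to it. The neuronal genes SYT11 and NEFM had their highest level of the 9 libraries in the S2101 library of A549. SYT11, a synaptic vesicle protein, had 0.388, 7.42 and 0.601 CPM under GSK126, against 0.623, 23.3 and 0.431 CPM under S2101 and 0.607, 2.78 and 0.340 CPM untreated, and 249 CPM in the TSA library of A549. Its difference of -1.06 ± 0.52 was 0.28 without that S2101 library and 1.15 with the TSA share taken off. The neurofilament NEFM (-1.61 ± 0.55) had reads in A549 alone. Without the S2101 library of A549 its difference could not be estimated, as the value of 0.24 had an SE of 11903. The germ-cell gene TEX14 (-0.86 ± 0.76), highest in untreated HCT116, was 0.52 without the S2101 library of A549. The histone genes HIST1H2BO (-1.32 ± 0.53) and HIST1H1E (-0.99 ± 0.80) had at most 22 reads in a library, can share reads with close copies and are uncertain. The germ-cell bromodomain gene BRDT stood at 0.69 ± 0.45.

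The series looks for genes that become detectable, and how the compounds compared in the number of genes seen depended on the threshold. At 1 CPM of the library total, 13395, 14082 and 13859 genes were detected under GSK126, against 13287, 14133 and 14009 under S2101 and 13099, 13564 and 13854 untreated. The difference was 108 in MHCC97H, -51 in A549 and -150 in HCT116, or -31 ± 130.2 (SD, n = 3, exact 2-sided sign-flip permutation p = 0.75, where 3 pairs allow no p under 0.25). With the TSA share taken off its S2101 library A549 turned to 227 and the mean to 61.7. At 0.1 CPM fewer genes were seen under GSK126 in each line, with differences of -63, -225 and -357 (-215 ± 147, SD, n = 3, exact sign-flip permutation p = 0.25, the smallest that 3 pairs allow). The threshold of 0.1 CPM lies below the floor of 3 reads. S2101 held more counts in MHCC97H (19061367 against 16345226) and HCT116 (16898160 against 14468304) and fewer in A549 (15226730 against 15537069). The part of depth in the differences at 0.1 CPM was not tested. With each library drawn down to 14468304 counts, the differences at 1 CPM were 95, -92 and -104. At 5 CPM the differences were 41, 21 and -126. Few genes were seen under a single compound of a line, with at least 1 CPM in its library and under 0.1 CPM in the other. These numbered 0, 1 and 5 for GSK126 and 1, 2 and 2 for S2101, each in 1 line. For GSK126 they were led by C4orf47, LBH, N4BP2L1 and COL20A1, all in HCT116. LBH, a transcription cofactor, had 20 reads (1.38 CPM) there, against 0 reads (0 CPM) under S2101, beside 598 reads (36.6 CPM) under GSK126 and 537 reads (28.2 CPM) under S2101 in MHCC97H. C4orf47 had 20 reads (1.38 CPM) under GSK126, against 1 read (0.0592 CPM) under S2101. For S2101 they were led by SEMA3G and DGKI in A549, LAX1 in HCT116 and LOC100127888 in MHCC97H. SEMA3G, a semaphorin, had 0 reads (0 CPM) under GSK126, against 19 reads (1.25 CPM) under S2101, and 12.6 CPM in the TSA library of A549. Each of the genes given with reads here rests on 19 or 20 reads of 1 library.

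The largest ratios within a line, which have no replicate and no test, named different genes in each. In MHCC97H they were MSH6, MGC50722, SPIC and IGFBP5 on the GSK126 side and CREB3L3, ABCA1, IL1B and WISP1 on the S2101 side. MSH6, a mismatch repair gene, had 2622 CPM under GSK126, against 949 CPM under S2101 and 519 CPM untreated (log2 ratio 1.47). MSH6, MGC50722 and SPIC varied together over the 12 libraries, with a Pearson r to MSH6 of at least 0.95. The tables do not show where the reads counted for these genes align, so their values may not be the level of the named gene. IL1B, the inflammatory cytokine, had 5.82 CPM under GSK126, against 17.7 CPM under S2101, and WISP1, a matricellular protein, 4.27 CPM under GSK126 against 12.7 CPM under S2101.

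In A549 the GSK126 side was led by NR4A2, STC1, PTGS2 and FOSB, and the S2101 side by FAM111B, AMOTL2, MCM10 and CYR61. STC1, the secreted glycoprotein stanniocalcin, had 403 CPM under GSK126, against 60.5 CPM under S2101 and 18.6 CPM untreated. It was also the single gene called, on the higher side, when the low-count filter was dropped. AMOTL2, a partner of YAP, had 12.1 CPM under GSK126, against 61.3 CPM under S2101 and 167 CPM untreated. The YAP target CYR61 had 7.49 CPM under GSK126, against 37.9 CPM under S2101, and the replication gene MCM10 12.9 CPM under GSK126 against 64.9 CPM under S2101. FAM111B, a protease linked to replication, had 4.22 CPM under GSK126, against 24.0 CPM under S2101.

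In HCT116 the GSK126 side was led by IL8, CHAC1, NR4A1 and NR4A2, and the S2101 side by CCBL1, LINC00173, FSD1 and RNASEH2C. CHAC1, a glutathione-degrading target of ATF4, had 38.1 CPM under GSK126, against 5.17 CPM under S2101 and 54.4 CPM untreated. Of these conditions S2101 stood apart, and the TSA library of HCT116 was low as well, at 3.22 CPM of the library total. CCBL1, a cysteine conjugate lyase, had 3.14 CPM under GSK126, against 11.5 CPM under S2101. RNASEH2C, a subunit of a ribonuclease, had 4.87 CPM under GSK126, against 14.1 CPM under S2101 and 15.9 CPM untreated. The 4 genes on the S2101 side of HCT116 held 11.5 to 14.1 CPM in the higher library, and the 4 on the GSK126 side 38.1 to 99.4 CPM.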

How the data were processed

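Libraries came from poly(A) RNA and a kit that does not mark strand (NEBNext Ultra), per the labels' protocols. Each library has a table the authors deposited, holding read count and RPKM by gene, per the file headers. Submitters' processing notes name GRCh38 and hg38. No source used here gives the aligner or counter, so antisense, overlapping and multicopy genes are uncertain. An entry without a gene name or values, present in 11 of 12 tables, was left out, as was ZZZ3, which 1 table lacks. The 25647 genes left were matched to RefSeq (GRCh38.p14) by accession for 24952, and promoter windows come from the same source. Library totals ran from 14468304 to 19061367 counts.

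Counts of the 9 GSK126, S2101 and untreated libraries entered edgeR 4.0.16 (R 4.3.3), with TMM scaling, filterByExpr (15763 genes kept) and a quasi-likelihood fit of condition and cell line with 4 residual degrees of freedom. Errors of differences are SEs from that fit. Ratios within a line use TMM-scaled CPM plus a pseudocount of 1. The line pairs the libraries, per the labels: deviations from the condition mean correlated at 0.88 to 0.96 within a line and -0.64 to -0.33 between lines. Such deviations cancel over the lines of a condition, so negative values between lines are built into the calculation. Called means a Benjamini-Hochberg adjusted p under 0.05, and the script was tested on simulated data. The RPKM values the authors deposited were used for 1 comparison of levels between genes.

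The comparison, the 44 gene lists and the rule for named genes were chosen with earlier results of these data known. Lists are described by counts and medians, with no set test. Named genes are the 6 smallest unadjusted p each way among genes with a single direction in all 3 lines and a mean of at least 2 CPM, since none was called. Added to them are EZH2, EED, SUZ12, KDM1A and RCOR1, the 2 largest differences of each list, the 4 largest ratios each way per line with at least 10 CPM, and up to 4 genes seen under a single compound. Genes outside the rule were chosen after their values were seen. Some genes that the rule names are not reported here. Alternatives were RLE scaling, no low-count filter, a filter of 10 CPM in 3 libraries, no line term, all 12 libraries, the 6 libraries alone, leaving out each line, leaving out or correcting the S2101 library of A549, DESeq2 1.42.0, and other thresholds for detection. The correction took off 9.07% of the TSA profile of that line. That share came from 12 genes with at most 1 read untreated, at most 1 read under GSK126 and at least 5 CPM under TSA in A549. These genes were thus chosen in part by low GSK126 counts, and are not the set of TSA genes described in Results. The same rule left 0 genes for the GSK126 library of A549, so the share has no value of that line beside it. If S2101 itself raised these genes, the correction takes off part of its effect, and this was not tested.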

Additional observations from a re-analysis of the deposited data

Results flagged for a closer look

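The lines were set against each other for each gene list, and 11 lists had a median log2 ratio of GSK126 over S2101 of 1 sign in MHCC97H and of the other sign in both A549 and HCT116, each median at least 0.1 from 0. Each line holds 1 library per compound, so the difference between lines was not tested. Lists with A549 or HCT116 as the line of the other sign are not counted here, such as interferon-stimulated genes (-0.25, -0.37 and 0.26).

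S2101 was the higher compound in MHCC97H and GSK126 in the other 2 lines for 8 of them. ATF4 targets had a median of -0.31 in MHCC97H, 0.57 in A549 and 0.86 in HCT116. Aryl hydrocarbon receptor targets had a median of -0.13 in MHCC97H, 0.12 in A549 and 0.39 in HCT116. Hypoxia targets had a median of -0.14 in MHCC97H, 0.76 in A549 and 0.53 in HCT116. AP-1 and immediate early genes had a median of -0.24 in MHCC97H, 0.81 in A549 and 0.87 in HCT116. ERK feedback had a median of -0.23 in MHCC97H, 0.53 in A549 and 0.29 in HCT116. ERBB receptors and ligands had a median of -0.45 in MHCC97H, 0.12 in A549 and 0.36 in HCT116. Chemokines and inflammatory cytokines had a median of -0.27 in MHCC97H, 0.34 in A549 and 0.49 in HCT116. NF-kB feedback had a median of -0.15 in MHCC97H, 1.31 in A549 and 0.76 in HCT116. GSK126 was the higher compound in MHCC97H and S2101 in the other 2 lines for 3 of them. DNA replication had a median of 0.13 in MHCC97H, -1.45 in A549 and -0.69 in HCT116. YAP targets had a median of 0.23 in MHCC97H, -0.37 in A549 and -0.10 in HCT116. WNT feedback had a median of 0.15 in MHCC97H, -0.38 in A549 and -0.20 in HCT116.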

How the results depend on the processing

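The 0 calls of GSK126 against S2101 held with RLE scaling, the stricter filter, no line term, all 12 libraries, the 6 libraries alone, each line left out, and the S2101 library of A549 left out or corrected. Without a low-count filter 1 gene was higher, and DESeq2 gave 14 higher and 10 lower. The fit with no replicate block (no cell line term) gave 0 higher and 0 lower, with 51 genes at an unadjusted p under 0.05 against 1469 with it; it also gave 0 and 0 for GSK126 against untreated, where the fit with the line term gave 1044 and 1080. That contrast gave 0 and 0 with all 12 libraries, 589 and 572 without the S2101 library of A549, and 0 to 796 higher and 0 to 967 lower with a line left out. S2101 against untreated gave 36 higher and 1 lower without a filter, 156 and 47 in DESeq2, 1 higher without the S2101 library of A549, and 0 to 1 higher and 0 lower with a line left out. For several of these the fit held fewer libraries, and otherwise the cause was not tested. The mean difference in detected genes, -31, was 61.7 after correcting the S2101 library of A549 and ran from -100.5 to 28.5 with a line left out.

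Of 101 named genes under 1159 alternatives in all, 17 values changed sign, in 12 genes, and 9 passed an adjusted p under 0.05, all in DESeq2. The sign changes include NEFM, whose value could not be estimated. With a line left out ABCA1 ran from -1.13 to 0.14, ANKRD1 from -1.95 to 0.45, HBEGF from -0.20 to 0.88, MMP1 from -0.29 to 0.65, NKD1 from -0.82 to 0.044, PHF21A from -0.10 to 0.50, RCOR1 from -0.14 to 0.096 and TEX14 from -1.01 to 0.26. Without the S2101 library of A549 CA9 was -0.17, MT1F 0.19, SYT11 0.28 and TEX14 0.52. NEFM, with reads in A549 alone, had a value of 0.24 with an SE of 11903 there, which is no measured change of sign. With that library corrected ANKRD1 was 0.18, SYT11 1.15 and TEX14 0.81, and with no replicate block MMP1 was -0.14. List medians moved by more than their spread between lines in 50 of 540 cases. A pseudocount of 5 moved 19 of 24 ratios within a line by more than counting error, with no change of sign. With 1 library per line and compound, no difference within a line can be tested.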

Other observations

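A small set of genes from different families ran together over all 12 libraries. MSH6 and 7 genes (GPR171, AQP2, GYPE, ZCWPW2, SPIC, PPP1R12B and MGC50722, on 6 chromosomes with MSH6) had a correlation with MSH6 of at least 0.95 in log2 CPM, a choice made after their values were seen and given with no test. Where the reads counted for them align was not tested, so the values may not be levels of the named genes. On the scale of CPM of the library total, without TMM scaling, they summed to 3083 CPM under GSK126, against 1125 under S2101, 1573 under TSA and 586 untreated in MHCC97H. In A549 they summed to 677 CPM under GSK126, against 902 under S2101, 1114 under TSA and 525 untreated. In HCT116 they summed to 1533 CPM under GSK126, against 1931 under S2101, 850.5 under TSA and 525 untreated.

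AQP2, the water channel of the kidney collecting duct, had GSK126 over S2101 ratios of 2.55, 0.598 and 0.631 in MHCC97H, A549 and HCT116, and MSH6 had 2.82, 0.755 and 0.822. GYPE, a glycophorin gene of red blood cells, had 3.30, 0.802 and 0.584, and SPIC, a factor of macrophages, 2.85, 0.730 and 0.697. MSH6, MGC50722 and SPIC of this set are among the 4 largest ratios on the GSK126 side of MHCC97H, while in A549 and HCT116 the same genes lay on the S2101 side. None of the gene lists holds a member of the set.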
